A study of Mus musculus with 2 samples.

Results

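Expression of 9 genes that encode ectonucleotidases and nucleotide phosphatases was examined in granulocyte-monocyte progenitors (GMPs), the BM cells that give rise to granulocytes and monocytes. The genes were Entpd1, Entpd5, Entpd6, Entpd7, Nt5c, Nt5c2, Nt5e, Cant1 and Itpa. They were taken by gene symbol, and all 9 were found among the 24421 symbols of the deposited values. RNA was sequenced from flow-sorted GMPs of 2 groups of female mice, 1 library each: NTB-GMP came from mice without a tumor (non-tumor-bearing), and 4T1-GMP from mice into whose mammary tissue 4T1 cells, a transplantable mouse mammary carcinoma line, had been implanted (4T1-bearing). Both groups had an F1 semi-syngeneic H-2b/d background; the labels name no drug. The comparison addresses how nucleotide metabolism genes in GMPs differ when the host carries a tumor. The methods of the study give an age of 8 to 12 weeks for all its mice, and the number of mice behind each library is not given in the sources used here. There were no replicates, so no test between the groups was possible, and each interval below is a 95% interval on reads that covers counting error only.

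Nucleotide phosphatases remove phosphate groups from nucleotides, and their place in the cell decides which pool they act on. At the cell surface, CD39 (encoded by Entpd1) converts extracellular ATP and ADP to AMP, and CD73 (encoded by Nt5e) converts AMP to adenosine, a mediator that dampens T cell and neutrophil activity and that has been studied as a product of suppressive myeloid cells. Related enzymes in the secretory pathway hydrolyze the nucleoside diphosphates that remain after sugars are transferred to proteins. Cytosolic 5′-nucleotidases and inosine triphosphatase act on the nucleotide pool that feeds RNA and DNA synthesis.

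The values were RPKM, reads scaled to the length of the gene and to the size of the library, which sets genes and libraries on 1 scale. A ratio between libraries still depends on what else fills each library, as Rn45s below shows. The library sizes behind the RPKM, recovered from the values, were 10180365 (NTB-GMP) and 30016263 (4T1-GMP). They were not whole numbers, so they may be scaled sizes rather than totals of reads, and shares of them are given as such; the reads recovered over all genes summed to 9486697 and 26353075. Rn45s, the ribosomal RNA precursor, accounted for 17.0% of the former and 6.98% of the latter, and removing it would shift every log2 ratio by -0.16. The 10 GMP marker genes were all detected, 4 at least 1.5-fold higher in 4T1-GMP (Ms4a3, Prtn3, Ctsg and Elane) and 3 at least 1.5-fold lower (Cd34, Fcgr3 and Kit). Cd34, a progenitor surface marker, was at 154 RPKM and 59.4 RPKM (here and below, NTB-GMP first where no library is named), and Mpo, the myeloperoxidase of primary granules, was at 5163 RPKM and 5625 RPKM. The summed level of 11 mature neutrophil markers was 512 RPKM and 4055 RPKM, with none of the 11 at 0 in either library. Most of both sums came from S100a8 (208 RPKM and 1594 RPKM) and S100a9 (189 RPKM and 1974 RPKM). All 11 were at least 1.5-fold higher in 4T1-GMP. The summed level of 9 monocyte and dendritic cell markers was 152 RPKM and 33.6 RPKM, again with none at 0. The 7 T and NK cell markers summed to 0.423 RPKM and 0.613 RPKM, with 5 of the 7 at 0 in NTB-GMP and Cd3g at 0 in both libraries. Of 4 carcinoma and epithelial markers, Epcam and Krt14 were listed at 0 in both libraries, Krt8 had 1 read and 6 reads, and Krt18 was at 12.8 RPKM and 8.90 RPKM. How far a different mix of sorted cells took part in the values below was not tested, and in bulk RNA fewer cells of a type cannot be told apart from less RNA per cell.

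Entpd1, Entpd5 and Itpa were higher in GMPs from 4T1-bearing mice by at least 1.5-fold, and Entpd1 had the highest ratio of the 9 genes. Smaller differences in the same direction are read against a background in which 54.7% of all genes that passed the filter below were higher in 4T1-GMP, or 39.2% when Rn45s is not counted in the library sizes. A mean RPKM of at least 1 was required for counts, and 8 of the 9 genes passed it, the exception being Nt5e. Of these 8 genes, 3 (37.5%) were at least 1.5-fold higher in 4T1-GMP on the log2(RPKM + 0.1) scale, namely Entpd1, Entpd5 and Itpa. Among all 10378 genes that passed the filter, 9.8% were at least 1.5-fold higher. None of the 8 genes was at least 1.5-fold lower, against 11.6% of all genes. The median log2 ratio of the 8 genes was 0.42, with a range from -0.01 to 1.08, and that of all genes was 0.05. Once Rn45s was taken out of the library sizes, only Entpd1 of the 8 genes was past 1.5-fold, against 5.73% of all genes higher and 17.0% lower. After quantile normalization Itpa was just short of it, leaving Entpd1 and Entpd5.

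**Figure D1:**
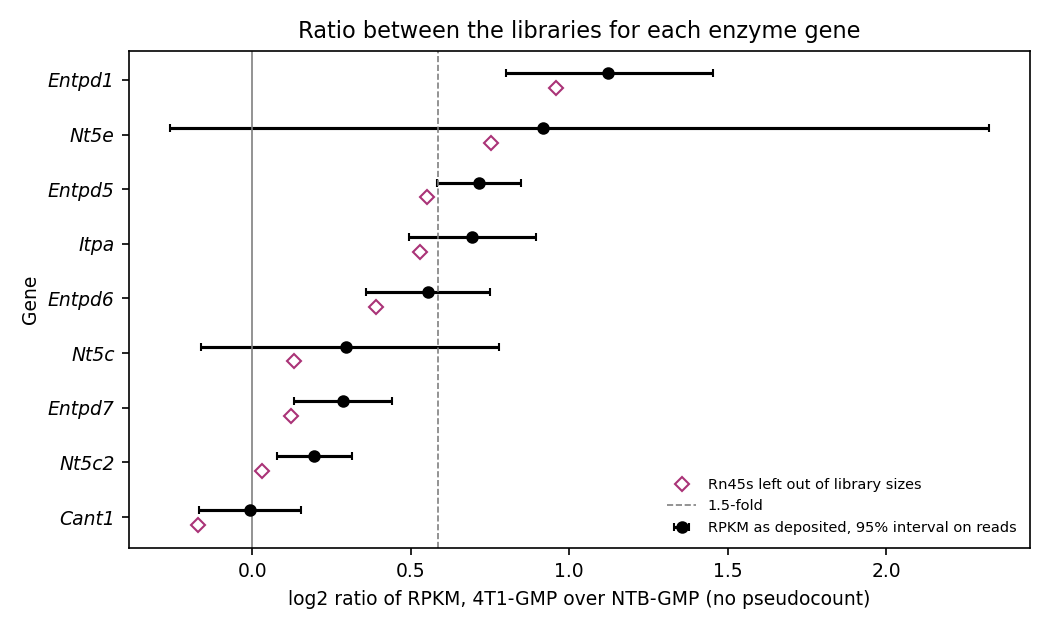
The log2 ratio of RPKM (4T1-GMP over NTB-GMP, x axis, no pseudocount) is plotted for each of the 9 genes; black points with bars are the ratio and its 95% interval on reads, open diamonds are the ratio when Rn45s is taken out of the library sizes, and the dashed line marks 1.5-fold. The interval of Entpd1, from 0.80 to 1.45, is the only one wholly to the right of the dashed line, and the bar of Nt5e is the widest.

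The counting intervals separate the genes further. In 6 of the 9 genes (Entpd1, Entpd5, Entpd6, Entpd7, Nt5c2 and Itpa) the interval of the ratio lay above 1, and in Nt5c, Nt5e and Cant1 it included 1. The same count was not made over all genes, so it cannot be read as a trait of these 9. With many reads a small difference is enough: the interval of Nt5c2 lay above 1 at a ratio of 1.15. Without Rn45s in the library sizes, the interval lay above 1 in Entpd1, Entpd5, Entpd6 and Itpa, included 1 in Entpd7, Nt5c, Nt5c2 and Nt5e, and lay below 1 in Cant1. Only Entpd1 had an interval that was wholly above 1.5-fold. Of the 36 pairs of genes, 13 had ratio intervals that did not overlap, 5 of them pairs with Entpd1, the gene with the highest ratio. These counts were not made over all genes either, so they too cannot be read as traits of these 9.

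Entpd1 encodes the surface enzyme CD39 and lies on the plus strand of chromosome 19, from 40612366 to 40741602 in the GENCODE M21 annotation of GRCm38, the assembly that mm10 also names. The 92 reads of NTB-GMP gave 2.06 RPKM, and the 590 reads of 4T1-GMP gave 4.49 RPKM. The level was 2.18-fold as high in 4T1-GMP, with an interval of 1.74 to 2.74. The log2 ratio of Entpd1 was above that of 97.2% of all genes that passed the filter. Without Rn45s in the library sizes the ratio was 1.94-fold. A ratio between genes of the same library does not depend on its library size. By that measure Entpd1 stood higher against each of the other 8 genes in 4T1-GMP. The differences ran from 0.20 (Nt5e) to 1.13 (Cant1) on the log2 scale without a pseudocount. All 8 were bound to be positive, because Entpd1 had the highest ratio of the genes examined. Their direction therefore restates that ranking and is not separate evidence. The ratio intervals were apart for Entpd6, Entpd7, Nt5c, Nt5c2 and Cant1 and overlapped for Entpd5, Itpa and Nt5e. Its level as a share of the summed RPKM of Entpd1, Entpd5, Entpd6 and Entpd7 was 6.77% and 9.70%.

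The deposited values do not say from which start site Entpd1 was transcribed. RefSeq places 2 starts in the gene, and their upstream sequences are shown because Entpd1 was the gene with the widest difference. Both are on the plus strand of GRCm38.p6. The distal one is chr19:40612234-40612365, the part of the 250 bases before the start that lies outside annotated exons of the neighboring gene Tctn3. The proximal one is chr19:40659520-40659769, all 250 bases before the start, in an intron of the longer Entpd1 transcripts. Capitals mark a match to GAGGAAG, the core letters bound by the myeloid factor PU.1.
Entpd1 distal: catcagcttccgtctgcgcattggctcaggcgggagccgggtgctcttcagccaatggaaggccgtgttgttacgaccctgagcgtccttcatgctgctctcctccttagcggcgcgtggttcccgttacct
Entpd1 proximal: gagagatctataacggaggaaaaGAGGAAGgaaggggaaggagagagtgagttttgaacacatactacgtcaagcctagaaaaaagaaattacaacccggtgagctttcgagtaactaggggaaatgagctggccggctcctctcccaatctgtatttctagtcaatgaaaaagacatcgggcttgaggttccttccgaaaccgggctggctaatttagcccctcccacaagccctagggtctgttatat

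The match begins 227 bases before the proximal start. Searched on both strands, GAGGAAG was present in 10.7% of 32536 upstream windows of 250 bases. No match was found in the 250 bases before either start for TTGCNNAA (a C/EBP motif, in 9.57% of all windows), GGAANNGAA (an ETS-IRF composite, 6.95%), TTCNNNGAA (STAT, 7.04%), GGGCGG (Sp1, 33.0%), ACGTG (hypoxia response, 16.7%) or TGACGTCA (CRE, 1.56%). The G and C bases made up 62.4% of the distal and 47.2% of the proximal window, against a median of 52.4% over all windows. A match describes letters and not a bound site.

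Nt5e encodes CD73, the surface enzyme that acts after CD39, and lies on chromosome 9 from 88327197 to 88372092 (plus strand). It was barely detected, with 7 reads in NTB-GMP (0.192 RPKM) and 39 reads in 4T1-GMP (0.363 RPKM). These levels were above the amount that 3 reads would give, 0.0823 RPKM and 0.0279 RPKM. The ratio was 1.89-fold with an interval of 0.836 to 5.01, so at this depth a difference in either direction was within counting error. Both surface genes were thus at unequal levels: Entpd1 exceeded Nt5e 10.7-fold in NTB-GMP and 12.4-fold in 4T1-GMP.

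Entpd5, Entpd6 and Entpd7 are the intracellular relatives of Entpd1. ENTPD5 is a uridine diphosphatase of the endoplasmic reticulum that aids the folding of N-glycosylated proteins, ENTPD6 is a nucleoside diphosphatase of the Golgi that can be secreted, and ENTPD7 is found on intracellular vesicles. All 4 share the conserved apyrase regions of the NTPDase family, which form the active site. The coding stretch around the first of these regions is shown, because it is what makes these genes a family, with the 4 codons of its core in capitals. Each stretch is 42 bases, on the coding strand, within 1 exon of the transcript with the longest coding sequence in GENCODE M21 (GRCm38).
Entpd1, exon 3 of 10, chr19:40720460-40720501, plus strand: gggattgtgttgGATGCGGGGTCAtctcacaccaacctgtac
Entpd5, exon 2 of 14, chr12:84396707-84396748, minus strand: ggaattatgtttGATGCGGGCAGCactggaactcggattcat
Entpd6, exon 2 of 14, chr2:150753264-150753305, plus strand: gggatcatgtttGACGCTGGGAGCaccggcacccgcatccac
Entpd7, exon 4 of 13, chr19:43704260-43704301, plus strand: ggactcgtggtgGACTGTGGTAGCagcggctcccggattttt

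Entpd5 and Entpd6 were the most alike of the 6 pairs, with 31 of 42 bases the same, and Entpd1 and Entpd7 the least, with 17 of 42. Entpd1 had 23 bases in common with Entpd5 and 25 with Entpd6.

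Entpd5 (chromosome 12, 84373857 to 84409029, minus strand) measured 10.8 RPKM from 560 reads and 17.8 RPKM from 2709 reads. The ratio was 1.64-fold with an interval of 1.497 to 1.8, above that of 93.5% of all genes. Entpd6 (chromosome 2, 150749042 to 150771675, plus strand) measured 10.5 RPKM (266 reads) and 15.3 RPKM (1151 reads). Its ratio of 1.47-fold was just under the 1.5-fold used for calls, and its interval of 1.28 to 1.68 included that value. Entpd7 (chromosome 19, 43689672 to 43733697, plus strand) was closer between the libraries, at 7.11 RPKM (438 reads) and 8.67 RPKM (1575 reads), or 1.22-fold with an interval of 1.10 to 1.36. The intervals of Entpd5 and Entpd7 did not overlap, and neither did those of Entpd1 and Entpd6 or of Entpd1 and Entpd7. Summed over Entpd1, Entpd5, Entpd6 and Entpd7, NTPDase RNA came to 30.5 RPKM without and 46.3 RPKM with a tumor, with Entpd5 the largest part of it in both.

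Cant1 (chromosome 11, 118406289 to 118419086, minus strand) encodes a calcium-activated nucleotidase of the endoplasmic reticulum and Golgi that prefers UDP and is needed for proteoglycan synthesis. Its level was 12.7 RPKM (423 reads) and 12.6 RPKM (1240 reads), a ratio of 0.994 with an interval of 0.890 to 1.11. Cant1 and Entpd5 both act on UDP in the secretory pathway, and their ratio intervals did not overlap. Without Rn45s in the library sizes the ratio of Cant1 was 0.888.

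Itpa (chromosome 2, 130667610 to 130681614, plus strand) encodes inosine triphosphatase, which clears inosine and xanthosine triphosphates from the nucleotide pool. Its 247 reads in NTB-GMP amounted to 20.9 RPKM and its 1177 reads in 4T1-GMP to 33.8 RPKM. The ratio was 1.62-fold with an interval of 1.41 to 1.86. Without Rn45s in the library sizes it was 1.44-fold.

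The cytosolic 5′-nucleotidases had ratios below that of Itpa. Nt5c2 (chromosome 19, 46883317 to 47015153, minus strand) encodes the enzyme that prefers inosine and guanosine monophosphates, and it had 16.8 RPKM (765 reads) and 19.3 RPKM (2583 reads). Its ratio was 1.15-fold with an interval of 1.06 to 1.24, which did not overlap that of Itpa, and without Rn45s in the library sizes the ratio was 1.02-fold. Nt5c (chromosome 11, 115490420 to 115491862, minus strand) encodes the cytosolic deoxyribonucleotidase. It had 36.7 RPKM (at least 50 reads) and 45.0 RPKM (at least 181 reads), or 1.23-fold with an interval of 0.893 to 1.71. The reads of Nt5c are lower bounds, since reads and gene length could be recovered only up to a common factor, so its interval is wider than the reads required. The intervals of Nt5c and Itpa overlapped.

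The order of levels was much the same in both libraries. Nt5c was highest, followed by Itpa and Nt5c2, and Entpd1 and Nt5e were the lowest in NTB-GMP as in 4T1-GMP. The middle of the order differed: Cant1, Entpd5 and Entpd6 followed each other in NTB-GMP with overlapping counting intervals for each neighboring pair, whereas in 4T1-GMP Entpd5 came first, then Entpd6 and then Cant1, with intervals that did not overlap. Entpd7 stood between these and Entpd1 in both libraries. Counting intervals narrow with depth, and the recovered library size of 4T1-GMP was 2.95 times that of NTB-GMP. Whether neighboring intervals overlap therefore depends in part on the library.

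**Figure D2:**
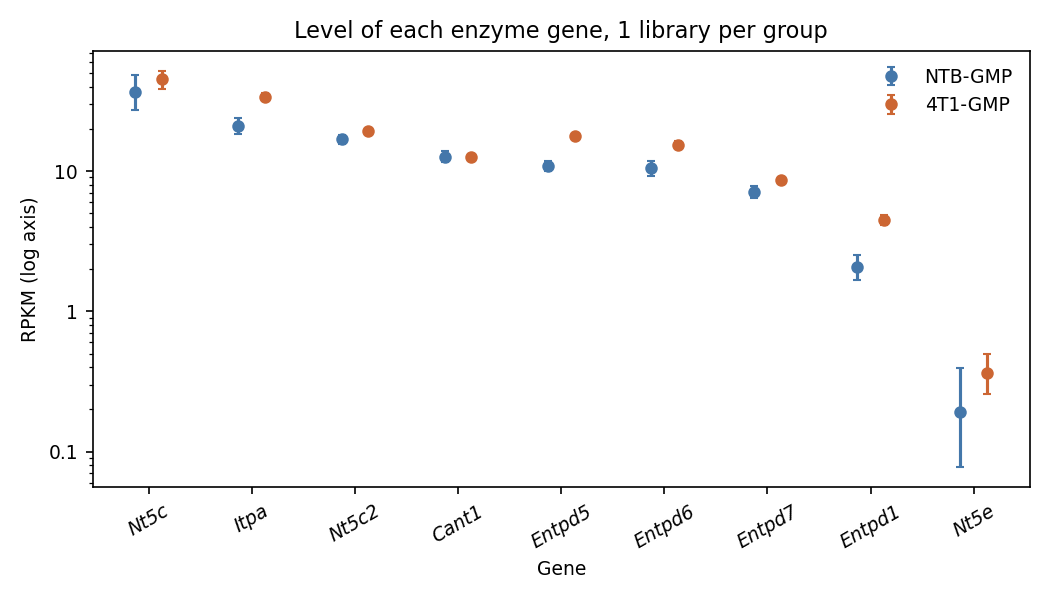
RPKM (log y axis) is plotted for each of the 9 genes in NTB-GMP (blue) and 4T1-GMP (orange), ordered by the level in NTB-GMP; bars are 95% Poisson intervals on reads. The 4T1-GMP point is above the NTB-GMP point in 8 genes, with Cant1 level at 12.7 and 12.6 RPKM, and the levels span from 0.192 RPKM (Nt5e) to 45.0 RPKM (Nt5c).

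Other genes of the same pathways were described from lists of 73 genes, 72 of which had a row and 42 of which passed the filter. Of the 42, 6 were at least 1.5-fold higher and 4 at least 1.5-fold lower in 4T1-GMP (14.3% and 9.52%, beside 9.8% and 11.6% of all genes), and their median log2 ratio was 0.26. Once Rn45s was taken out of the library sizes, these counts were 3 and 7 (7.14% and 16.7%, beside 5.73% and 17.0% of all genes). Among the other ectoenzymes, 4 of 12 passed the filter, all 4 were higher and none reached 1.5-fold, with a median of 0.45. They were Entpd4, a further intracellular NTPDase, and Enpp1, Enpp4 and Enpp5 of the nucleotide pyrophosphatase family, named here after their values were seen. The highest ratio among them was that of Enpp5, 1.497-fold, with an interval of 1.23 to 1.84. Alpl, the tissue-nonspecific alkaline phosphatase that can also convert AMP to adenosine, was at 0.0659 RPKM and 0.0447 RPKM. Entpd8 and Enpp3 were listed at 0 in both libraries.

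Of 8 other intracellular nucleotidases, 6 passed and 1 (16.7%) was at least 1.5-fold higher, beside 9.8% of all genes. It was Nt5c3, a pyrimidine 5′-nucleotidase, at 23.4 RPKM and 36.5 RPKM. Of 18 nudix family genes and triphosphate pyrophosphatases, 16 passed and 1 (6.25%) was at least 1.5-fold higher, beside the same 9.8%. It was Nudt4, at 19.2 RPKM and 31.5 RPKM. Neither Nt5c3 nor Nudt4 was past 1.5-fold without Rn45s in the library sizes.

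The genes that take up or convert adenosine moved in both directions. Of 13 genes, 10 passed. Of these 10, 4 (40%) were at least 1.5-fold higher and 2 (20%) at least 1.5-fold lower, beside 9.8% and 11.6% of all genes. The higher genes were Slc29a2, Pnp, Ada and Pnp2, the last pair named after their values were seen. Without Rn45s in the library sizes 3 were higher and 2 lower, beside 5.73% and 17.0% of all genes. Pnp2 was then no longer past 1.5-fold. Slc29a2, a nucleoside transporter, was at 0.993 RPKM and 1.91 RPKM, and Pnp, the phosphorylase that splits inosine, was at 50.3 RPKM and 88.8 RPKM. Reads of Pnp and its close copy Pnp2 may have been divided between the genes. Dpp4, the surface peptidase that binds adenosine deaminase, was at 4.49 RPKM and 1.26 RPKM, and Slc29a3, a nucleoside transporter of lysosomes, was at 7.80 RPKM and 4.57 RPKM.

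Adenosine, the product of CD73, acts through receptors whose genes were at low levels. None of the 4 adenosine receptor genes reached a mean RPKM of 1. Adora2a was at 1.40 RPKM (37 reads) and 0.217 RPKM (17 reads), and Adora1 was listed at 0 in both. Of 18 genes for P2 receptors and nucleotide release channels, 6 passed, none was at least 1.5-fold higher and 2 were at least 1.5-fold lower, with a median log2 ratio of -0.53. Without Rn45s in the library sizes 4 of the 6 were at least 1.5-fold lower, P2rx1 and P2ry1 being added, beside 17.0% of all genes rather than 11.6%. The 2 lower genes in the deposited values were P2ry14, a receptor for UDP-sugars, at 5.20 RPKM and 1.63 RPKM, and P2rx4, an ATP-gated channel, at 11.6 RPKM and 4.63 RPKM. P2ry14, P2rx4 and Dpp4 were lower in the library in which markers of several lineages were also lower. Of the monocyte and dendritic cell markers that passed the filter, 8 of 8 were at least 1.5-fold lower. The same held for 4 of 5 mast cell and basophil markers and 2 of 3 stem and early progenitor markers that passed. It also held for 2 of 2 erythroid and 2 of 2 megakaryocyte markers, whereas 11 of 11 mature neutrophil markers were at least 1.5-fold higher. The part of any of these cells in the values of P2ry14, P2rx4 and Dpp4 was not tested.

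**Figure D3:**
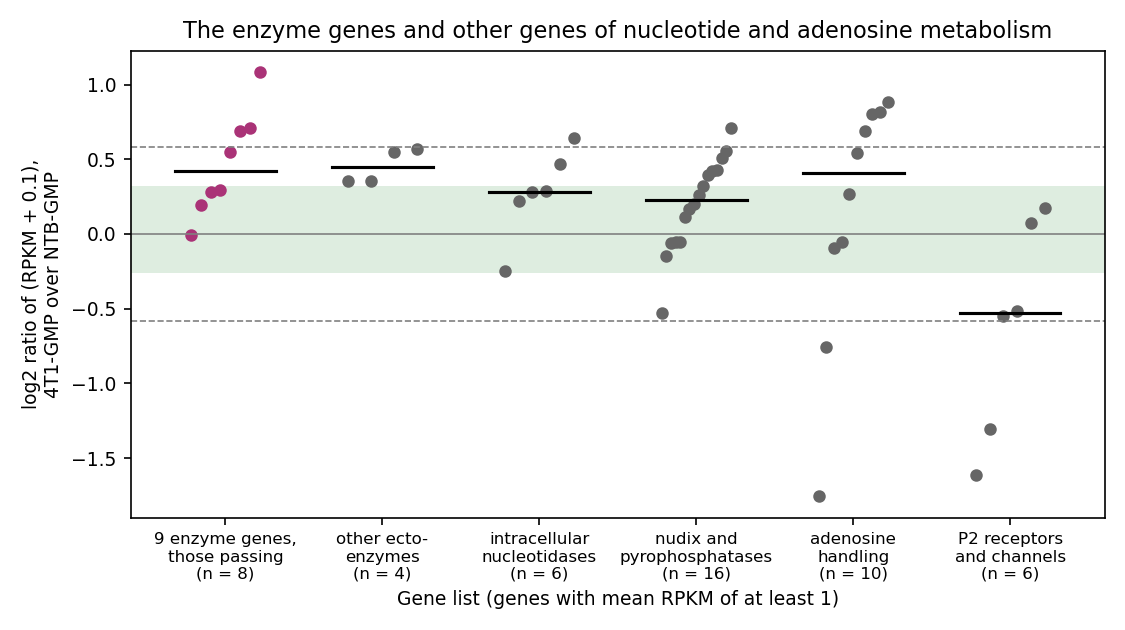
The log2 ratio of RPKM + 0.1 (4T1-GMP over NTB-GMP, y axis) is plotted for every gene with a mean RPKM of at least 1 in each list; black bars are list medians, dashed lines mark 1.5-fold and the green band is the interquartile range of all 10378 genes, from -0.26 to 0.32. The 8 enzyme genes run from -0.01 to 1.08 around a median of 0.42, and the P2 receptor and channel genes have a median of -0.53.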

How the data were processed

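GMPs were sorted from BM and total RNA was sequenced, with 1 library per group and no replicates. The authors deposited RPKM, 1 value per gene symbol and library; the submitters' processing notes name CASAVA 1.8.2, cutadapt 1.2.1, TopHat2 2.0.13, Picard 1.97, HTSeq 0.6.1, a package for differential expression and mm10, without roles. The annotation and the use of strand are not given in the sources used here. Exons of Entpd6, Entpd7, Nt5c and Nt5c2 share at most 4.95% of their bases with any 1 gene on the other strand. Nt5c2 overlaps both Ina (4.13%) and AC122442.1 (1.11%). The labels do not give the gate by which these GMPs were sorted.

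Library sizes and whole reads were recovered from the RPKM, whose ratios are ratios of whole numbers, for 14833 of 14833 genes above 0 (relative tolerance 1e-11). Some counts are lower bounds by a common factor. The procedure was tested on simulated data. Intervals of ratios are 95% Clopper-Pearson intervals on reads scaled by library size. PCR reads without molecular identifiers are not independent molecules, so intervals and the floor of 3 reads cover counting error only. Log2 ratios used a pseudocount of 0.1, which understates the change of low genes. The genes and lists were chosen with earlier results of these data known. All 9 genes are named, and in each other list up to 2 rises and 2 falls past 1.5-fold, plus genes at or near 0 and those the text says were named after their values were seen. Alternatives were pseudocounts of 1 and 0.01, minimum mean RPKM of 5 or none, a fold of 2, library sizes without Rn45s, median centring, TMM (30% of ratios and 5% of levels trimmed at each end) and quantile normalization. Promoters came from RefSeq (GRCm38.p6), which matched 8 of 9 genes, and gene models from GENCODE M21. Protein sequences were not used here, so the conserved region is shown as coding bases. Computations used Python 3.11.15, numpy 2.4.6, pandas 2.3.3, scipy 1.17.1 and matplotlib 3.10.9.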

Additional observations from a re-analysis of the deposited data

How the results depend on the processing

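The count of 3 genes at least 1.5-fold higher in 4T1-GMP became 1 (Entpd1) once Rn45s was taken out of the library sizes, which lowers every ratio by construction, and 1 (Entpd1) with a fold of 2, against 3.25% of all genes. It was 2 of 8 after quantile normalization, against 9.48% of all genes. With a minimum mean RPKM of 5, which removes Entpd1, it was 2 of 7, against 8.54%. With no filter, which adds Nt5e, it was 4 of 9, against 11.9%. None of the 9 genes was past the fold in the lower direction under any alternative tried. The share of all genes past it in that direction ran from 4.92% (fold of 2) to 17.0% (without Rn45s). Of 54 values for single genes under 6 alternatives, 50 lay inside the read interval and 0 reversed. The 4 that moved beyond it did so without Rn45s, with log2 ratios of 0.55 for Entpd5, 0.12 for Entpd7, 0.03 for Nt5c2 and -0.17 for Cant1. TMM (log2 factor of -0.008) and median centring (median of 0.05) change every gene by a small and nearly equal amount. Staying inside the interval under them, or inside a wide interval such as that of Nt5e, therefore says little. Across the 6 alternatives the log2 ratio of Entpd1 ran from 0.84 (pseudocount of 1) to 1.26 (quantile normalization). The median log2 ratio of those of the 9 genes that passed the filter ran from 0.26 without Rn45s to 0.55 with no filter on low values. Over all genes the medians under these settings were -0.11 and 0.01. Depth limits Nt5e, with 7 reads in NTB-GMP, most. No paired analysis was possible because there was a single library on each side, nor could any replicate be dropped.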

Other observations

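Among genes of the other lists below a mean RPKM of 1, 4 were singled out after their values were seen. They include the relative of Entpd1 named Entpd3, a surface NTPDase, and Bst1, a surface enzyme that acts on NAD. Entpd3 had 0.0285 RPKM in NTB-GMP (1 read) and 0.840 RPKM in 4T1-GMP (87 reads), a ratio of 29.5 with a counting interval of 5.16 to 1179. Bst1 had 0.126 RPKM (3 reads) and 1.198 RPKM (84 reads), a ratio of 9.50 with an interval of 3.14 to 47.0. The P2 receptor genes went both ways. P2ry13, a receptor for ADP, had 0.233 RPKM (6 reads) and 1.57 RPKM (119 reads), a ratio of 6.73 with an interval of 3.001 to 18.7. P2rx7, an ATP-gated channel, had 1.46 RPKM (82 reads) and 0.320 RPKM (53 reads), a ratio of 0.219 with an interval of 0.152 to 0.313. Because these genes were picked by their values, their intervals cannot be read as evidence that they differ. How many other genes at such low levels had intervals that excluded 1 was not counted. With 1 library per group no spread between mice is known.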
